A study of Drosophila melanogaster and Drosophila yakuba and Drosophila virilis with 6 samples.

Results

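Among 4909 genes that could be paired between D. melanogaster and D. virilis, 370 (7.54%) were counted as changed in their disc bias. The bias is the difference between the eye-antennal and the wing imaginal disc of these flies. In the 370 it passed a 2-fold bound in only 1 of these species, or was turned round. Below the bound the other species could still differ in the same direction. Transcripts were counted by tag profiling: NlaIII cleaves the cDNA at its recognition sites, a short stretch next to such a site is read as a tag, and tags are summed at each position. Total RNA came from the discs of larvae at the wandering stage of the last instar, with 1 library for each of the 6 combinations of species and disc: D. melanogaster (strain CantonS) eye-antennal and wing, D. virilis eye-antennal and wing, and D. yakuba eye-antennal and wing. No library was replicated, so the difference of the disc ratio between species could not be tested. Every interval of a fold or of a ratio of folds below covers counting error only. Intervals of a share of genes or of a list median treat genes as independent units and leave counting error out. D. melanogaster and D. yakuba are close relatives within the subgenus Sophophora, while D. virilis belongs to the subgenus Drosophila.

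The genes were chosen by measured values. For each species the eye-antennal tags of a gene were divided by its wing tags after scaling of the libraries, and the log2 ratio of D. virilis was subtracted from that of D. melanogaster to give a difference of differences. Only genes with at least 30 tags over the discs of each of these species entered. A gene was called biased to a disc when the bound nearer 1 of the 95% interval of its fold reached 2-fold. It was counted as changed when the bias went to opposite discs, or when it was called in one species only and the ratio of the folds also had its nearer 95% bound at 2-fold or more. The D. melanogaster and D. virilis values of these genes are therefore descriptions of what was selected. The D. yakuba libraries had no part in the selection.

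Imaginal discs are epithelial sacs set aside in the larva. The eye-antennal disc forms the eye, the antenna and much of the head capsule, and behind its morphogenetic furrow photoreceptor neurons differentiate while the larva wanders. The wing disc forms the wing blade, the hinge and the notum, and carries on its notum side a layer of myoblasts that later build flight muscle. Retinal and wing selector genes act in these discs, whereas fat body, larval body wall muscle, gut, salivary gland and brain are other organs that lie near the discs at dissection.

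The labels of the discs were checked against eya and nub, neither of which is among the 370. The neuronal gene elav, also listed as a retinal marker, is among the 370 and is described below. The retinal gene eya had 3578 eye-antennal and 130 wing tags in D. melanogaster and 2882 and 134 in D. virilis. The wing pouch gene nub had 12 eye-antennal and 161 wing tags in D. melanogaster and 9 and 146 in D. virilis. The libraries held 2207612 eye-antennal and 1860370 wing tags in D. melanogaster, 2065918 and 3132492 in D. virilis, and 5673047 and 2200615 in D. yakuba. The eye-antennal libraries of D. melanogaster and D. virilis had more thinly filled positions: 60.5% and 64.0% of their positions held 1 tag, against 39.4% and 39.2% in the wing libraries of the same species, while in D. yakuba the shares were 35.2% and 36.6%.

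Of the 785 genes biased in at least 1 of D. melanogaster and D. virilis, 370 (47.1%, exact Clopper-Pearson 95% interval 43.6 to 50.7) had a changed bias and 124 (15.8%, 13.3 to 18.5) were biased to the same disc in both. The other 291 were biased in 1 species but their ratio of folds did not reach the bound. D. melanogaster had 243 genes biased to the eye-antennal disc (4.95%) and 354 to the wing disc (7.21%). D. virilis had 143 (2.91%) and 183 (3.73%). The changed genes fell into 91 biased to the eye-antennal disc in D. melanogaster alone (1.85%), 164 to the wing disc in D. melanogaster alone (3.34%), 32 to the eye-antennal disc in D. virilis alone (0.652%), 69 to the wing disc in D. virilis alone (1.41%) and 14 to opposite discs (0.285%). With libraries scaled by their total tags in place of TMM, the genes biased in D. virilis alone divided into 41 eye-antennal and 53 wing. Without the condition on the ratio of folds these classes would have held 155, 304, 61, 127 and 14 genes. The median difference of differences was 0.01 on the log2 scale over all 4909 genes.

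**Figure D1:**
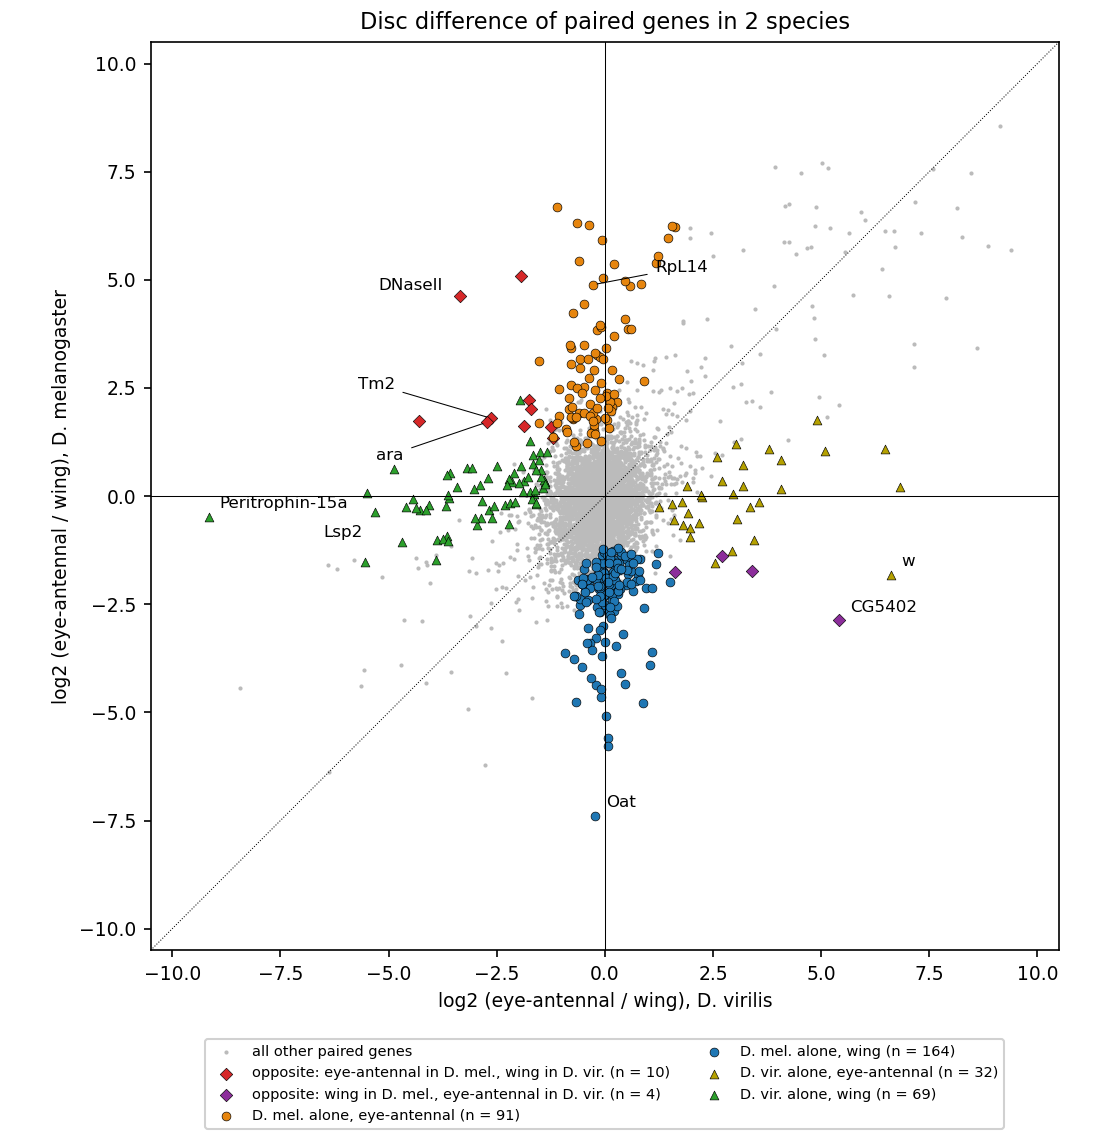
Log2 eye-antennal over wing ratio in D. melanogaster (y axis) against the same ratio in D. virilis (x axis) for the 4909 paired genes, with 1 point per gene. Of the 370 genes with a changed bias, those biased to opposite discs lie in the upper left and lower right quadrants. Those biased in 1 species gather around the lines at 0, although some, such as w, lie well off them. Their class medians in the other species were -0.26 and 0.07 (D. melanogaster alone, eye-antennal and wing) and -0.08 and 0.09 (D. virilis alone). Genes biased to the same disc in both lie in the upper right and lower left quadrants, not all of them near the dotted diagonal.

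In 10 of the 14 genes with opposite bias the eye-antennal disc was higher in D. melanogaster and the wing disc in D. virilis, and in 4 it was the reverse. DNaseII, on chromosome arm 3R (BDGP6.54, 18019375 to 18021161), encodes an acid nuclease of lysosomes that digests the DNA of engulfed cells. It had 48 eye-antennal tags and 1 wing tag in D. melanogaster, against 68 and 913 in D. virilis. The fold was 36.8 towards the eye-antennal disc in D. melanogaster (95% interval 6.30 to 1484), resting on 1 wing tag, and 10.3 towards the wing disc in D. virilis (8.06 to 13.4). CAH7, a carbonic anhydrase, had 154 eye-antennal and 3 wing tags in D. melanogaster, against 34 and 171 in D. virilis. Both genes drew nearly all their tags from 1 position in D. virilis, and in D. melanogaster the leading position of DNaseII had 40 eye-antennal tags and no wing tag.

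Enzymes at both ends of myo-inositol metabolism were among the 14, and in opposite directions. Miox (3L, 12184984 to 12187860) encodes myo-inositol oxygenase, which opens the ring of myo-inositol as the first step of its breakdown. It had 745 eye-antennal and 171 wing tags in D. melanogaster, a fold of 3.34 towards the eye-antennal disc (2.83 to 3.97), against 2 and 63 tags in D. virilis, a fold of 24.2 towards the wing disc (6.43 to 204). Inos (2R, 7454922 to 7458874) encodes inositol-3-phosphate synthase, which makes the precursor of myo-inositol. It had 60 eye-antennal and 156 wing tags in D. melanogaster, a fold of 3.39 towards the wing disc (2.5 to 4.64), against 365 and 154 in D. virilis, a fold of 3.08 towards the eye-antennal disc (2.55 to 3.75). The differences of differences were 6.02 for Miox and -3.38 for Inos. The pair was set side by side after its values were seen.

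Among transcription factors of wing patterning, ara (3L, 12580672 to 12596018) was biased to opposite discs. It encodes a homeodomain protein of the Iroquois complex, which specifies the notum and the dorsal eye. It had 138 eye-antennal and 32 wing tags in D. melanogaster, a fold of 3.31 towards the eye-antennal disc (2.24 to 5.02), and 52 and 452 tags in D. virilis, a fold of 6.68 towards the wing disc (5.01 to 9.08). The positions of ara differed within D. melanogaster: the leading position had 127 eye-antennal tags and no wing tag, while the next had 2 eye-antennal and 23 wing tags. Its neighbour caup, of the same complex, was no member and leaned to the wing disc in both, with 62 and 102 tags in D. melanogaster and 32 and 105 in D. virilis. Sf3b3, a subunit of the splicing factor SF3b, was divided in the same manner, with 594 eye-antennal and 102 wing tags at the leading D. melanogaster position and 53 and 112 at the next.

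The remaining genes of this direction were Tm2 and Mlc2, described with the muscle genes below, CG10433 and the identifiers FBgn0029128 and FBgn0004028, which have no symbol in the annotation used. CG10433 had 143 eye-antennal and 23 wing tags in D. melanogaster and 81 and 355 in D. virilis. FBgn0029128 had 155 and 29 in D. melanogaster and 33 and 142 in D. virilis. FBgn0004028 had 544 and 137 in D. melanogaster and 213 and 656 in D. virilis. For each of these 3 genes the disc with more tags in D. melanogaster was the disc with fewer in D. virilis, as the rule for opposite genes required.

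In the reverse direction stood CG5402, Ugalt, Inos and Sgs5bis. CG5402 had 25 eye-antennal and 143 wing tags in D. melanogaster, a fold of 7.46 towards the wing disc (4.85 to 11.9), and 49 eye-antennal tags and 1 wing tag in D. virilis, a fold of 63.8 towards the eye-antennal disc (10.9 to 2569). Ugalt, the transporter that carries UDP-galactose into the Golgi, had 38 and 97 tags in D. melanogaster, against 216 and 26 in D. virilis. Sgs5bis, a secreted protein of the salivary glue family, had 82 and 166 tags in D. melanogaster, against 32 and 6 in D. virilis. It was the only 1 of 14 glue genes with enough tags to be paired. The glue genes together made up 667.1 eye-antennal and 5808 wing tags per 1000000 in D. melanogaster and 16.5 and 2.82 in D. virilis, and the part of attached gland in the Sgs5bis values was not tested.

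**Figure D2:**
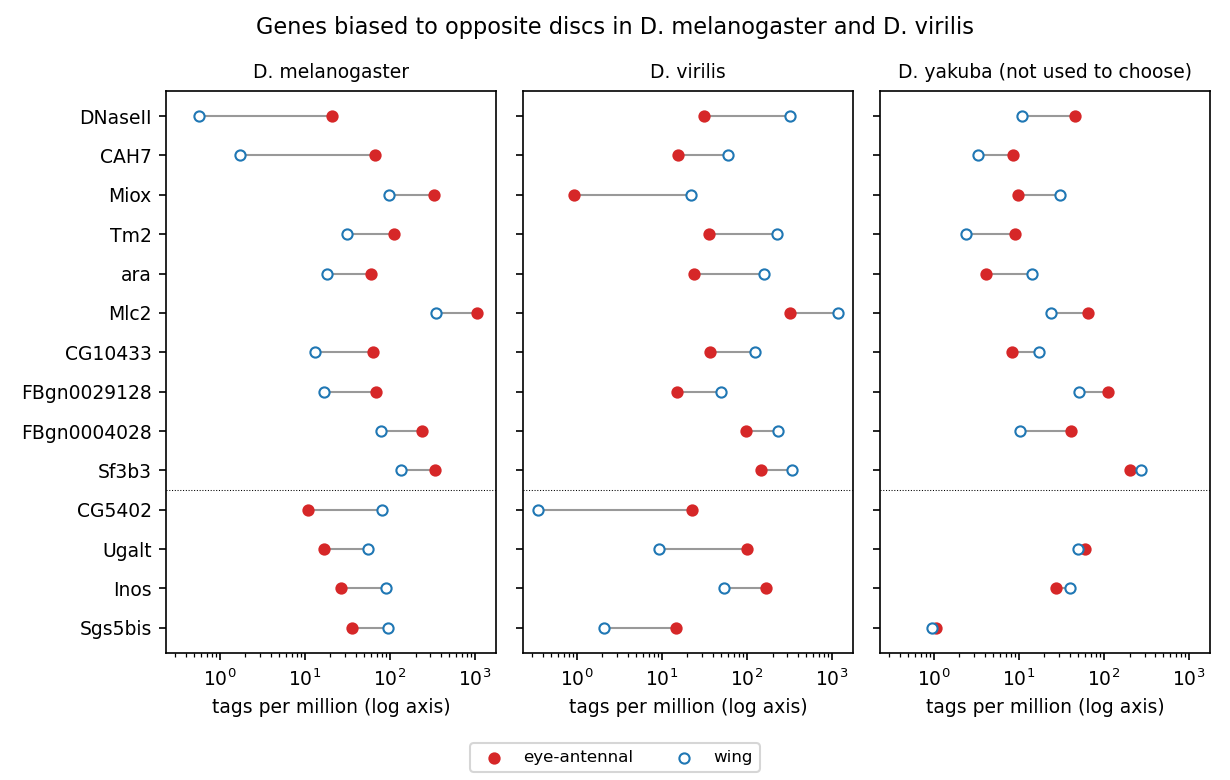
Level (tags per 1000000, log axis) of the 14 genes with opposite bias in the eye-antennal (filled red) and wing (open blue) libraries of D. melanogaster, D. virilis and D. yakuba. Above the dotted line the filled point lies to the right in D. melanogaster and to the left in D. virilis for all 10 genes, and below it the order is turned round for all 4. CG5402 has no D. yakuba values, and Sgs5bis has 8 D. yakuba tags, under the minimum of 30.

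The genes of the larval muscle list formed the most complete group. Sarcomeres are built of thin filaments of actin with tropomyosin and troponin, and thick filaments of myosin with its light chains. Of 10 paired genes of the list, 9 had a changed bias (90%, against 7.54% of all paired genes): 2 opposite, 4 biased in D. melanogaster alone and 3 in D. virilis alone. The difference of differences was above 0 in 10 of 10, with a median of 2.51 against 0.01 over all paired genes. The median log2 ratio of the list was 1.55 in D. melanogaster and -1.10 in D. virilis.

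Tm2 (3R, 15310193 to 15315197), a tropomyosin that lies along the thin filament, had 252 eye-antennal and 55 wing tags in D. melanogaster and 78 and 637 in D. virilis. Its fold was 3.52 towards the eye-antennal disc in D. melanogaster (2.62 to 4.80) and 6.28 towards the wing disc in D. virilis (4.96 to 8.05). Mlc2 (3R, 30171438 to 30174551), the regulatory light chain of muscle myosin, had 2441 and 605 tags in D. melanogaster and 697 and 3321 in D. virilis, with folds of 3.10 towards the eye-antennal disc (2.83 to 3.39) and 3.66 towards the wing disc (3.37 to 3.98). Both genes were the most strongly reversed of the list, with differences of differences of 4.45 and 3.5.

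The essential light chain Mlc1, the calponin-like Mp20, the thick filament protein Mf (myofilin) and the troponin C TpnC25D were biased in D. melanogaster alone, all to the eye-antennal disc. Mp20 had 791 eye-antennal and 194 wing tags in D. melanogaster and 137 and 214 in D. virilis. Mf had 240 and 38 in D. melanogaster and 123 and 287 in D. virilis. For Mp20, Mf and Mlc1 the D. virilis ratio was on the wing side of 1 without reaching the bound. Mlc1 had 635 and 175 tags in D. melanogaster and 695 and 1653 in D. virilis, and its second D. melanogaster position, with 8 eye-antennal and 20 wing tags, favoured the other disc. TpnC25D rested on 34 and 3 tags in D. melanogaster and had 46 and 53 in D. virilis.

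The larval actin Act57B, the muscle LIM protein Mlp84B and the troponin C TpnC73F were biased in D. virilis alone, all to the wing disc. Act57B had 210 eye-antennal and 128 wing tags in D. melanogaster, a fold of 1.26 towards the eye-antennal disc (1.01 to 1.58), and 244 and 1413 in D. virilis, a fold of 4.45 towards the wing disc (3.88 to 5.12). Mlp84B had 54 and 20 tags in D. melanogaster and 141 and 522 in D. virilis. TpnC73F had 43 and 16 tags in D. melanogaster and 117 and 386 in D. virilis. The only paired gene of the list outside the 370 was up, the troponin T of muscle, with 117 and 42 tags in D. melanogaster and 215 and 394 in D. virilis, which was called biased in neither. Summed over its 25 genes, the list made up 3126.5 eye-antennal and 1485 wing tags per 1000000 in D. melanogaster and 1157 and 3176 in D. virilis. Of the 25 genes, 4 eye-antennal and 6 wing values were at 0 in D. melanogaster and 10 and 11 in D. virilis. In these whole discs fewer cells of a type and less RNA per cell cannot be told apart, and the part of attached larval muscle in these values was not tested.

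**Figure D3:**
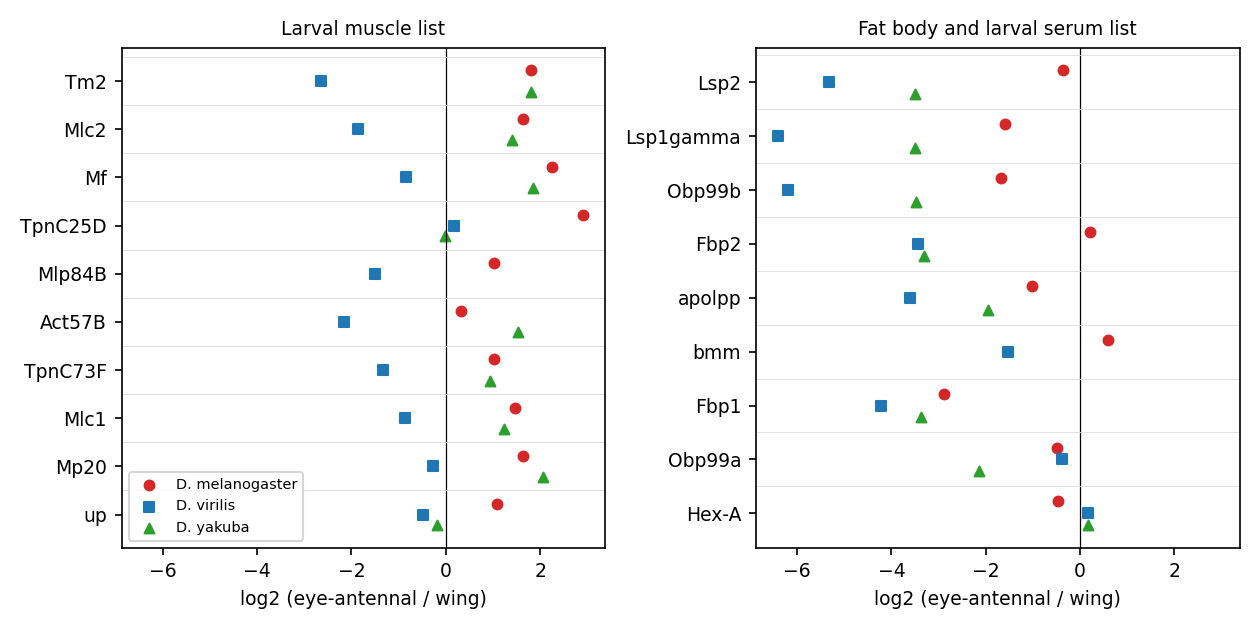
Log2 eye-antennal over wing ratio of each paired gene of the larval muscle list (left) and the fat body list (right) in D. melanogaster (red circles), D. virilis (blue squares) and D. yakuba (green triangles, where at least 30 tags were counted). All 10 muscle genes have the D. melanogaster point to the right of the D. virilis point. In the fat body list the D. yakuba point lies left of 0 for 7 of 8 genes.

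The fat body is the larval organ that makes the storage proteins of the hemolymph. Of 9 paired genes of its list, 3 were members (33.3%, against 7.54% of all paired genes), all biased to the wing disc in D. virilis alone (1.41% of all paired genes), and the difference of differences was above 0 in 7 of 9, with a median of 2.58 (95% interval of the median, from the order of the 9 genes, -0.12 to 4.82, which includes 0). The median log2 ratio was -0.50 in D. melanogaster and -3.61 in D. virilis. Lsp2 (3L, 12129393 to 12131869), larval serum protein 2, had 20528 eye-antennal and 20297 wing tags in D. melanogaster, against 122 and 6352 in D. virilis. Its fold towards the wing disc was 1.29 in D. melanogaster (1.26 to 1.31) and 40 in D. virilis (33.5 to 48.3).

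Fbp2 (2L, 9426784 to 9427917), fat body protein 2, had 4733 and 3121 tags in D. melanogaster and 307 and 4309 in D. virilis, with folds of 1.16 towards the eye-antennal disc (1.11 to 1.22) and 10.8 towards the wing disc (9.61 to 12.2). The lipophorin precursor apolpp had 269 and 422 tags in D. melanogaster and 8 and 135 in D. virilis. Lsp1gamma and Obp99b were biased to the wing disc in both and so were no members: Lsp1gamma had 1958 and 4525 tags in D. melanogaster and 146 and 16185 in D. virilis. Their differences of differences, 4.82 for Lsp1gamma and 4.51 for Obp99b, were nonetheless close to the 4.95 of the member Lsp2. Summed over 19 genes, the list made up 17041 eye-antennal and 33744 wing tags per 1000000 in D. melanogaster and 502.8 and 14202 in D. virilis. The eye-antennal library of D. virilis was thus the lowest of these 4 for fat body transcripts, and the part of attached fat body in the 3 members was not tested.

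The gene with the largest difference of differences of all was Peritrophin-15a (2L, 8395665 to 8396096), which encodes a chitin-binding protein of the lining of the midgut. It had 15 eye-antennal and 16 wing tags in D. melanogaster, against 1 and 1115 in D. virilis, and its difference of differences was 8.69. The D. virilis fold towards the wing disc was 857 (153 to 33878), resting on 1 eye-antennal tag. Another gut gene of the list, the protease epsilonTry, was biased to the wing disc in both, with 2 and 41 tags in D. melanogaster and 4 and 2029 in D. virilis. The 42 midgut genes together made up 73.2 eye-antennal and 373.3 wing tags per 1000000 in D. melanogaster and 133.8 and 3448 in D. virilis, and the part of attached gut was not tested.

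The other genes of this class with the largest ratio between the species' folds, taken at its 95% bound nearer 1, were CG13315, Srg1, CG11370, CG13607, CG13510, Nplp4 and CG7255. CG13315 had 178 eye-antennal and 130 wing tags in D. melanogaster and 16 and 963 in D. virilis. CG11370 had 2095 and 1107 in D. melanogaster and 40 and 630 in D. virilis. Nplp4, a precursor of secreted neuropeptide-like peptides, had 78 and 62 in D. melanogaster and 191 and 3036 in D. virilis. In all 10 leading genes of this class the D. melanogaster fold was under 2, and the D. virilis fold ran from 10.8 for Fbp2 to 857 for Peritrophin-15a.

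The same class held kn, Cyp4d1, Cpr51A and RpS23 from the fixed lists. kn encodes the transcription factor Collier, which patterns the intervein region of the wing, and had 31 eye-antennal and 34 wing tags in D. melanogaster, against 9 and 99 in D. virilis, a D. virilis fold of 8.45 towards the wing disc (4.28 to 19.0). Its second D. melanogaster position, with 2 eye-antennal and 14 wing tags, leaned to the wing disc while the leading position, with 28 and 18, did not. Cyp4d1, a cytochrome P450, had 28 and 27 tags in D. melanogaster and 6 and 149 in D. virilis. Cpr51A, a chitin-binding cuticle protein, had 88 and 51 tags in D. melanogaster and 429 and 2595 in D. virilis. The ribosomal protein gene RpS23 had 41325 and 27938 tags in D. melanogaster and 6621 and 23343 in D. virilis.

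Genes biased to the eye-antennal disc in D. virilis alone were led by w and Syt1. The gene w (X, 2790599 to 2796466) encodes an ABC transporter that carries precursors of eye pigment into pigment cells. It had 13 eye-antennal and 36 wing tags in D. melanogaster, against 37 eye-antennal tags and no wing tag in D. virilis. The D. virilis fold was at least 16 with 3 tags in place of the count of 0, and the D. melanogaster fold of 3.61 was towards the wing disc with a bound (1.87) under the threshold. Syt1 (2L, 2772327 to 2799979), the calcium sensor of synaptic vesicle release, had 68 and 45 tags in D. melanogaster and 43 and 0 in D. virilis, a fold of at least 18.6. In D. melanogaster its leading positions went opposite ways, with 43 eye-antennal and 2 wing tags at the first and 10 and 21 at the next.

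TwdlE, a cuticle protein of the Tweedle family, had 14 and 32 tags in D. melanogaster and 415 and 92 in D. virilis. EloB, the elongin B subunit, had 544 and 461 in D. melanogaster and 167 and 18 in D. virilis. The growth factor gene miple1, of the midkine and pleiotrophin family, had 282 and 194 in D. melanogaster and 123 and 9 in D. virilis. These 3 had no bias in D. melanogaster beyond the bound, while TwdlE leaned there to the wing disc by 2.98-fold (1.55 to 6.04).

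The remaining leaders of this class were firl, CG3168, Tbca, C1GalTA and Hr3. Hr3 encodes a nuclear receptor induced by ecdysone and had 51 and 18 tags in D. melanogaster and 34 and 0 in D. virilis. C1GalTA, a galactosyltransferase of O-linked glycans, had 23 and 43 in D. melanogaster and 32 and 5 in D. virilis. Tbca, a tubulin folding cofactor, had 244 and 104 in D. melanogaster and 1009 and 77 in D. virilis. Its D. melanogaster positions went opposite ways, with 222 eye-antennal and 3 wing tags at the first and 13 and 93 at the next. The difference of differences of Tbca was -3.24 over all positions, 0.34 from the leading position of each species alone, and 0.53 with the genome mapping of D. virilis, so its direction depended on which tags were counted. From the Notch list, E(spl)m4-BFM, a Bearded family gene that Notch signalling turns on, had 1030 and 424 tags in D. melanogaster, a fold of 1.86 (1.66 to 2.09), and 663 and 142 in D. virilis, a fold of 6.07 (5.06 to 7.33), both towards the eye-antennal disc. It therefore differed in degree and not in direction.

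The genes biased to the eye-antennal disc in D. melanogaster alone had a median difference of differences of 3.01. At the top stood l(2)efl, a small heat shock protein of the alpha-crystallin family, with 67 eye-antennal tags and no wing tag in D. melanogaster and 82 and 230 in D. virilis. Its D. melanogaster fold was at least 17.1, and the D. virilis fold of 2.16 was towards the wing disc (1.67 to 2.81). RpL14 (3L, 8601006 to 8602392), a protein of the large ribosomal subunit, had 22313 and 578 tags in D. melanogaster, a fold of 29.6 (27.3 to 32.2), and 64 and 101 in D. virilis. A single NlaIII position carried 22264 of the eye-antennal and 545 of the wing tags of RpL14 in D. melanogaster. RpL35A, of the same subunit, had 1835 and 98 in D. melanogaster and 15923 and 23567 in D. virilis. Its leading D. melanogaster position had 1784 eye-antennal and 24 wing tags, while the next had 16 and 21.

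Obp44a, an odorant-binding protein, had 296 eye-antennal and 5 wing tags in D. melanogaster, against 245 and 275 in D. virilis, with a D. melanogaster fold of 45.4 (19.2 to 141). CG6495 and CG15919 had 51 and 50 eye-antennal tags and no wing tag in D. melanogaster, while CG6495 had 78 and 160 and CG15919 had 66 and 111 in D. virilis. The other leaders were FBgn0058042, Tina-1, CG4041 and gammaTub23C. Tina-1 had 564 and 38 tags in D. melanogaster and 322 and 733 in D. virilis. The gamma-tubulin gene gammaTub23C, whose product nucleates microtubules, had 175 and 15 in D. melanogaster and 30 and 114 in D. virilis, and its leading D. melanogaster position held 158 eye-antennal tags and no wing tag. In each of these 10 leaders the eye-antennal library had at least 8.95 times the wing level in D. melanogaster, and all but Obp44a leaned to the wing disc in D. virilis, some of them within their interval.

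Neuronal genes in this class were nrv3 and elav. nrv3 (2L, 21380000 to 21393319), a beta subunit of the sodium pump of neurons, had 226 and 5 tags in D. melanogaster, a fold of 34.7 (14.6 to 108), and 47 and 44 in D. virilis, a fold of 1.39 (0.902 to 2.15). Both leading D. melanogaster positions of nrv3 went the same way, with 116 and 1 tags at the first and 108 and 2 at the next. elav (X, 509235 to 523226), an RNA-binding protein of differentiated neurons, had 236 and 28 tags in D. melanogaster, a fold of 6.47 (4.36 to 9.94), and 403 and 280 in D. virilis, a fold of 1.87 (1.60 to 2.19), both towards the eye-antennal disc. The difference of differences of elav was 1.77, and 0.06 with the genome mapping of D. virilis. Other paired neuronal genes were biased to the eye-antennal disc in both, such as Appl with 802 and 6 tags in D. melanogaster and 350 and 7 in D. virilis. Of the 10 paired genes of this list 3 were members (30%, against 7.54% of all paired genes), and its median difference of differences was 0.14. The member besides elav and nrv3 was Syt1, biased to the eye-antennal disc in D. virilis alone (difference of differences -6.61). The difference was above 0 in 5 genes of the list and below 0 in 5. The genes Ilp2 and Hug, known from neurosecretory neurons of the brain, had 45 and 35 tags in the eye-antennal library of D. melanogaster and 34 and 40 in that of D. virilis, and none in either wing library. Of the other paired genes of the brain and neuroblast list, nerfin-1 was biased to the eye-antennal disc in both species. In contrast, dpn leaned to the wing disc in D. melanogaster by 2.93-fold (1.91 to 4.60), with 32 and 72 tags, and had 80 and 87 in D. virilis. The folds of grh towards the eye-antennal disc were only 1.33 in D. melanogaster and 1.31 in D. virilis. The part of attached brain in the neuronal values was not tested.

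The lists of signalling and other cell types added a few genes to this class. aop, the repressor Yan of the EGFR pathway, had 669 and 172 tags in D. melanogaster, a fold of 2.98 (2.52 to 3.55), and 507 and 622 in D. virilis, a fold of 1.06 (0.941 to 1.19). The difference of differences of aop was 1.49, and 0.55 with the genome mapping of D. virilis. Tom, a Bearded family gene of the Notch pathway, had 666 and 218 tags in D. melanogaster and 150 and 259 in D. virilis. The immunoglobulin gene beat-IIIc had 118 and 17 tags in D. melanogaster and 34 and 43 in D. virilis, and its second D. melanogaster position, with 4 eye-antennal and 9 wing tags, went the other way.

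The largest class was that of the 164 genes biased to the wing disc in D. melanogaster alone, with a median difference of differences of -2.13. Oat (3L, 19647280 to 19649851), ornithine aminotransferase, had 1 eye-antennal tag and 192 wing tags in D. melanogaster, a fold of 250.3 (44.4 to 9936) that rests on 1 eye-antennal tag, and 15 and 23 in D. virilis. CG6959 had 14 and 607 tags in D. melanogaster and 17 and 21 in D. virilis. CG2116 had 10 and 390 tags in D. melanogaster and 58 and 72 in D. virilis. At the leading D. melanogaster position none of these 3 genes had an eye-antennal tag, with 180 wing tags for Oat, 586 for CG6959 and 387 for CG2116.

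Dph1 and Dph5 encode enzymes of the pathway that makes diphthamide, a modified histidine of elongation factor 2. Dph1 had 2 and 65 tags in D. melanogaster and 350 and 446 in D. virilis. Dph5 had 9 and 124 in D. melanogaster, a fold of 18 (9.16 to 40.2), and 380 and 379 in D. virilis, a fold of 1.30 towards the eye-antennal disc (1.13 to 1.51). Both were thus biased to the wing disc in D. melanogaster and close to even in D. virilis, and the pair was set side by side after its values were seen. The remaining leaders were Nelf-E, CG5532, FBgn0040017, GCS1 and Pld3. Nelf-E, a subunit of the negative elongation factor that holds RNA polymerase II near promoters, had 3 and 74 tags in D. melanogaster and 80 and 56 in D. virilis. GCS1, a glucosidase that trims N-linked glycans, had 6 and 60 in D. melanogaster and 41 and 25 in D. virilis. CG5532 had 22 and 429 tags in D. melanogaster, and its positions went opposite ways, with no eye-antennal and 415 wing tags at the first and 15 and 0 at the next.

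Enzymes of glycolysis contributed 3 of 12 paired genes, all to this class (25%, against 3.34% of all paired genes in this class), with a median difference of differences of the list of -0.38. Pgk, phosphoglycerate kinase, had 88 and 338 tags in D. melanogaster, a fold of 5.01 (3.95 to 6.40), and 1477 and 3047 in D. virilis, a fold of 1.59 (1.49 to 1.69), both towards the wing disc. Pgi, glucose-6-phosphate isomerase, had 356 and 960 in D. melanogaster and 266 and 387 in D. virilis. Gapdh1, glyceraldehyde-3-phosphate dehydrogenase, had 400 and 903 in D. melanogaster and 4500 and 6053 in D. virilis. All 3 enzymes were higher in the D. melanogaster wing library by 2.94 to 5.01 times and differed by less than 2-fold in D. virilis.

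Of 7 paired genes that are often used as references 3 were members (42.9%, against 7.54% of all paired genes), all biased to the wing disc in D. melanogaster alone. Gapdh1 is given above. alphaTub84B, the main alpha-tubulin, had 3513 and 6337 tags in D. melanogaster, a fold of 2.35 (2.26 to 2.45), and 35796 and 47636 in D. virilis, a fold of 1.02 (1.01 to 1.04). Prx2, a peroxiredoxin, had 67 and 204 in D. melanogaster and 2485 and 2277 in D. virilis. The other 4, Act5C, Act42A, 14-3-3zeta and RpL32, were not members and differed between the D. melanogaster discs by 1.10, 1.10, 1.13 and 1.19 times. In D. virilis they differed by 1.15, 1.64, 1.47 and 1.32 times, all but Act5C towards the wing disc.

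Of 50 paired cytosolic ribosomal protein genes 8 were members (16%, against 7.54% of all paired genes), of which 2 were biased in D. melanogaster alone to the eye-antennal disc, 4 in D. melanogaster alone to the wing disc, and 1 in D. virilis alone to each disc. RpS20 had 1715 and 5517 tags in D. melanogaster and 14610 and 20615 in D. virilis. RpL4 had 836 and 2641 in D. melanogaster and 10844 and 20285 in D. virilis. The list median was -0.31. Of 50 paired mitochondrial ribosomal protein genes 2 were members (4%, below the 7.54% of all paired genes), mRpL22 with 83 and 205 tags in D. melanogaster and 141 and 142 in D. virilis, and mRpL39 with 134 and 260 and with 73 and 62. Of 26 paired proteasome genes 2 were members (7.69%, close to the same 7.54%): Prosbeta7, a subunit of the proteolytic core, and Rpn11, the deubiquitinase of the lid. Prosbeta7 had 249 and 534 tags in D. melanogaster and 418 and 504 in D. virilis, and Rpn11 had 185 and 363 and then 1108 and 1388. All 4 of these mitochondrial ribosomal and proteasome members were biased to the wing disc in D. melanogaster alone, a class with 3.34% of all paired genes. Beside that class share the 4% and the 7.69% were higher, on 2 genes each.

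From the ecdysone list ImpE1, an ecdysone-induced membrane protein, was biased to the wing disc in D. melanogaster alone. It had 140 and 268 tags in D. melanogaster and 40 and 22 in D. virilis. Hsp67Ba, from the heat shock list, had 122 and 358 tags in D. melanogaster and 194 and 336 in D. virilis, and both its leading D. melanogaster positions favoured the wing disc, with 54 and 200 tags at the first and 61 and 150 at the next.

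Among the lists of disc patterning, 0 of 10 paired genes of retinal determination, 0 of 13 of photoreceptor specification, 0 of 10 of antennal and head appendage identity and 2 of 24 of wing and notum patterning (8.33%, ara and kn) were members, against 7.54% of all paired genes. At that share lists of this size would hold few members, so nothing particular to them is read from the counts. In other lists 0 of 23 genes of Hedgehog, Dpp and Wg signalling, 0 of 18 of the cell cycle, 0 of 5 of brain and neuroblasts, 0 of 7 of hemocytes and 0 of 7 of trachea were members. The gene toy, a Pax6 protein of the eye, had 371 eye-antennal tags and 1 wing tag in D. melanogaster and 368 and 2 in D. virilis, with a difference of differences of -0.01. Sox15, of the wing hinge, had 1 and 95 in D. melanogaster and 5 and 596 in D. virilis, with a difference of 0.01. Antp, the Hox gene of the thorax, had 22 and 63 in D. melanogaster and 6 and 301 in D. virilis. It was biased to the wing disc in both and so was no member, with a difference of differences of 3.28.

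**Figure D4:**
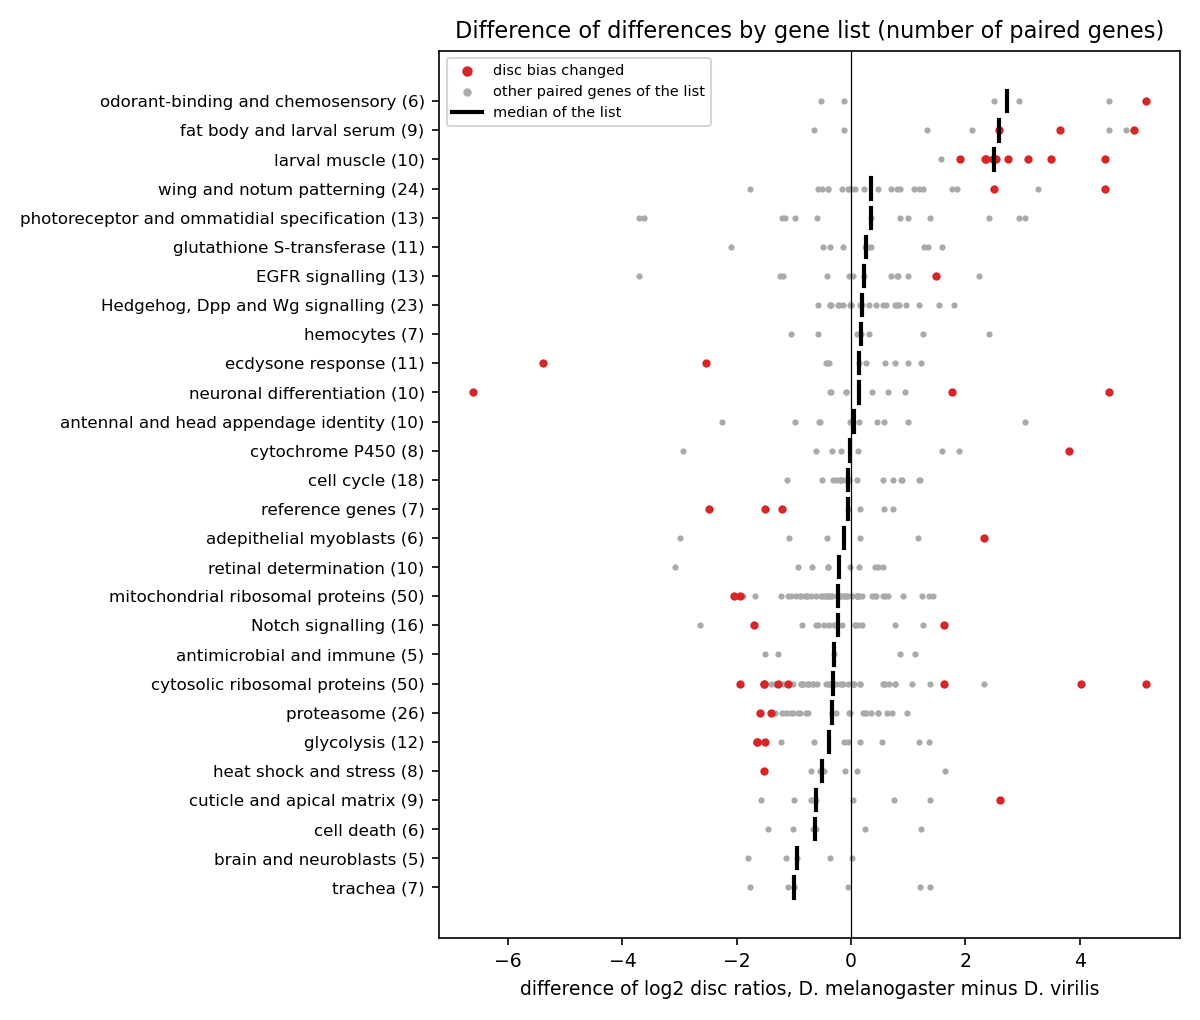
Difference of differences (log2, D. melanogaster minus D. virilis) of every paired gene of the lists with at least 5 paired genes, with the number of paired genes in brackets, genes with a changed bias in red, other genes in grey and the median of each list as a black bar. The bars of the larval muscle and fat body lists lie at 2.51 and 2.58 and that of the small odorant-binding list at 2.72, while the lists of retinal determination and cell cycle lie at -0.21 and -0.05 with no red point.

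The D. yakuba libraries gave a reading of the 370 genes that did not enter their choice. Of these genes, 318 had at least 30 D. yakuba tags. Over all 4290 paired genes so measured, 93 (2.17%) were biased to the eye-antennal disc and 68 (1.59%) to the wing disc in D. yakuba, and the median log2 ratio was -0.0037. Of 55 measured genes biased to the wing disc in D. virilis alone, 20 were biased to the wing disc in D. yakuba and 0 to the eye-antennal disc, with a median log2 ratio of -0.73. Of 146 measured genes biased to the wing disc in D. melanogaster alone, 1 was biased to the wing disc in D. yakuba and 0 to the eye-antennal disc, with a median of -0.11. Of 75 measured genes biased to the eye-antennal disc in D. melanogaster alone, 6 were biased to the eye-antennal disc in D. yakuba and 1 to the wing disc, with a median of 0.26. Of 30 measured genes biased to the eye-antennal disc in D. virilis alone, 3 were biased to the eye-antennal disc in D. yakuba and 1 to the wing disc, with a median of 0.39. For comparison, of the genes biased to the same disc in both chosen species, 41 of 60 measured eye-antennal genes and 20 of 39 wing genes were biased to that disc in D. yakuba.

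Among the 20 D. virilis wing genes with a wing bias in D. yakuba were the fat body genes. Lsp2 had 1322 eye-antennal and 5599 wing tags in D. yakuba, a fold of 11.3 (10.7 to 12.1). Fbp2 had 611 and 2249, a fold of 9.86 (9.02 to 10.8). apolpp had 86 and 125, a fold of 3.89 (2.94 to 5.19). On these 3 genes the D. yakuba libraries leaned to the wing disc as those of D. virilis did, and the fat body list as a whole made up 2563 eye-antennal and 27045 wing tags per 1000000 there. CG13315, CG13607 and CG7255, which led the class, were also biased to the wing disc in D. yakuba, by 7.52, 5.87 and 8.04 times.

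The median log2 ratio of the larval muscle list was 1.41 in D. yakuba, against 1.55 in D. melanogaster and -1.10 in D. virilis, and 1 of its 9 measured genes, Mp20, was biased to the eye-antennal disc by the 2-fold bound, with 543 and 48 tags. Tm2 had 51 and 5 tags in D. yakuba, a fold of 3.81 towards the eye-antennal disc (1.53 to 12.2). Mlc2 had 366 and 51, a fold of 2.68 in the same direction (1.99 to 3.66). Act57B, called in D. virilis alone, had 97 and 12, a fold of 3.02 (1.65 to 6.04) towards the eye-antennal disc. TpnC25D, with 1401 and 525 tags, and up, with 204 and 87, did not lean to the eye-antennal disc in D. yakuba, with log2 ratios of -0.0069 and -0.20. The list summed to 846.5 eye-antennal and 662.5 wing tags per 1000000 in D. yakuba.

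Among the 14 opposite genes, 12 were measured in D. yakuba, of which 2 were biased to the eye-antennal disc and 1 to the wing disc. DNaseII had 256 eye-antennal and 23 wing tags in D. yakuba, a fold of 4.15 (2.71 to 6.67), and FBgn0004028 had 231 and 22, a fold of 3.92 (2.53 to 6.38), both to the eye-antennal disc as in D. melanogaster. Miox had 55 and 64, a fold of 3.12 towards the wing disc (2.14 to 4.56), the disc of its D. virilis bias. ara had 23 and 30, a fold of 3.5 towards the wing disc (1.96 to 6.30), which missed the bound. The D. yakuba eye-antennal library was the deepest of the 6, so that even counts such as those of Miox and ara correspond to a higher level in the wing disc.

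Of the neuronal members, elav had 532 and 56 tags in D. yakuba, a fold of 3.55 towards the eye-antennal disc (2.69 to 4.76). nrv3 had 75 and 12, a fold of 2.33 in the same direction (1.26 to 4.71). The large D. melanogaster differences of RpL14 and Oat were not present in D. yakuba at the 2-fold bound: RpL14 had 89466 and 35626 tags, a fold of 1.07 towards the wing disc (1.05 to 1.08), and Oat had 260 and 136, a fold of 1.40 towards the wing disc (1.13 to 1.73). Tsf1, which encodes transferrin, and CG3168 were biased in D. yakuba to the disc opposite to their call, Tsf1 to the wing disc by 2.43-fold (2.04 to 2.90) and CG3168 to the wing disc by 2.93-fold (2.69 to 3.19). The member with the largest D. yakuba ratio towards the eye-antennal disc was CG32032, with 445 and 4 tags in D. melanogaster, 21 and 9 in D. virilis and 315 and 5 in D. yakuba, a D. yakuba fold of 23.5 towards the eye-antennal disc (9.97 to 72.9). Tsf1 and CG32032 were named after their values were seen.

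**Figure D5:**
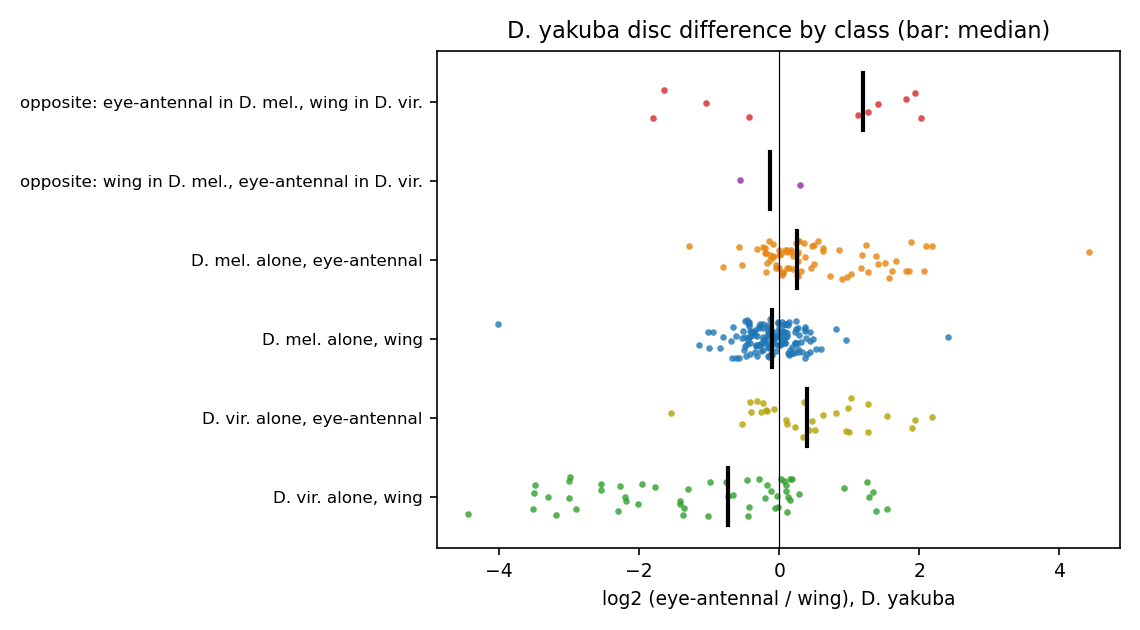
Log2 eye-antennal over wing ratio in D. yakuba of the genes of each class with at least 30 D. yakuba tags, with 1 point per gene, a black bar at the median, and vertical scatter within a row added for legibility. The genes biased to the wing disc in D. virilis alone reach furthest to the left with a median of -0.73, while those biased to the wing disc in D. melanogaster alone gather near 0 with a median of -0.11.

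A gene with several NlaIII positions gives a disc ratio at each of them from the same library. The tags of every position are part of the gene sum that made the call. Agreement of a second position with the call is therefore in part fixed by the choice of genes. Among genes with a second position of at least 10 tags, that position pointed to the called disc for 29 of 34 genes biased to the wing disc in D. virilis alone, 11 of 16 biased to the eye-antennal disc in D. virilis alone, 64 of 83 biased to the wing disc in D. melanogaster alone and 23 of 41 biased to the eye-antennal disc in D. melanogaster alone. For the genes biased to the same disc in both species it did so for 31 of 31 eye-antennal and 21 of 23 wing genes read in D. melanogaster, and for 34 of 35 and 26 of 26 read in D. virilis. Of these 4 classes the eye-antennal genes of D. melanogaster alone had the lowest share of second positions in the called direction.

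In 28 of 192 members with 2 such positions in D. melanogaster (14.6%) the leading positions favoured opposite discs by at least 2-fold each, against 144 of 2461 other paired genes (5.85%) and 1 of 54 genes biased to the same disc in both species (1.85%). The share was 0.858% (2 of 233) for the members and 1.86% (53 of 2843) for other genes in D. virilis, and 1.37% (3 of 219) and 0.371% (10 of 2697) in D. yakuba. Of the 41 eye-antennal genes of D. melanogaster alone with 2 positions, 12 (29.3%) were so divided. Positions of a gene can belong to different transcript ends or, with no strand in the files, to an overlapping gene, which cannot be told apart here. With the divided genes left out, an alternative chosen after seeing the data, 340 members were left, made up of 78, 155, 26, 69 and 12 genes in the order of classes given above.

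The changed genes were spread over depths and chromosome arms. Grouped by the tags of the species with fewer, 139 of 2082 genes with 30 to under 100 tags were members (6.68%), 135 of 1815 with 100 to under 300 (7.44%) and 96 of 1012 with 300 or more (9.49%). Of the 353 members placed on an arm, 22.4% lay on 3L and 16.7% on X, against 20.1% and 17.5% of all 4556 placed genes. Just inside the bound on the ratio of folds stood GABA-B-R2, with 46 and 5 tags in D. melanogaster, 55 and 57 in D. virilis and a bound of 2.01, and just outside it pasi1, with 305 and 77, 113 and 139, and a bound of 1.99. Gp93, with 763 and 1498 tags in D. melanogaster and 225 and 306 in D. virilis, was just inside among the wing genes at 2.01, and Vha36-1, with 529 and 1000 and with 48 and 50, just outside at 1.997.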

How the data were processed

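The deposited values are raw tag counts, 1 line per position with its assigned gene, per the file headers. The submitters' processing notes name Bowtie 0.12.1. Builds, allowed mismatches and the treatment of tags that match several places were not given in the sources used here. D. virilis and D. yakuba have a gene mapping, on which all main values rest, and a genome mapping, which for D. virilis served as an alternative. The files have no strand column, so sense and antisense tags were summed per gene.

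Genes were paired by the D. melanogaster gene identifier, and each was paired with 1 D. virilis gene. Of 12681 identifiers with a tag 11758 had a symbol in the annotation used (BDGP6.54), whose gene positions are the only coordinates given. Libraries were scaled within each species by TMM factors (edgeR 4.0.16, R 4.3.3), 1.05 and 0.949 in D. melanogaster, 1.09 and 0.918 in D. virilis and 1.02 and 0.980 in D. yakuba (eye-antennal and wing), so folds differ from the ratio of raw tags. Intervals of folds are exact conditional binomial (Clopper-Pearson) 95% intervals, and those of the ratio of folds exact conditional odds ratio intervals (scipy 1.17.1). Log2 values were computed with 0.5 tags added, and a fold against a count of 0 uses 3 tags in its place. Second positions needed 10 tags. These steps were tested on simulated data.

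The members, the 33 gene lists (847 matched genes, 377 paired, 30 symbols unmatched) and the rules were chosen with earlier results of these data known. Genes were named by rule: the 10 with the largest conservative ratio of folds in each class (12 per direction for opposite genes), and per list at most 4 members chosen for their tags and at most 4 for their difference of differences. Names outside the rule are marked as chosen after their values were seen, apart from genes given for comparison. No p-value is given, since the difference between species in the disc ratio rests on 1 library per species and disc. Alternatives were other scalings (total tags, DESeq2 1.42.0 size factors), minimum tags, fold thresholds, the leading position alone, positions with 2 or more tags, the genome mapping and 3 added tags. Of 33 lists, ring gland hormone synthesis had 0 paired genes. The lists without a sentence of their own had the following members among their paired genes: 0 of 2 for Hox genes, 0 of 3 for JAK/STAT signalling, 0 of 6 for cell death, 0 of 5 for antimicrobial and immune genes, 0 of 11 for glutathione S-transferases, 1 of 6 for adepithelial myoblasts (beat-IIIc), 1 of 6 for odorant-binding proteins (Obp44a), 1 of 8 for cytochrome P450 (Cyp4d1), 1 of 8 for heat shock (Hsp67Ba), 1 of 9 for cuticle (Cpr51A), 1 of 13 for EGFR signalling (aop), 2 of 16 for Notch signalling (Tom, E(spl)m4-BFM) and 2 of 11 for ecdysone response (Hr3, ImpE1).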

Additional observations from a re-analysis of the deposited data

Results flagged for a closer look

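For each of the 14 genes with opposite bias, the 1 library pair of D. melanogaster and that of D. virilis moved in opposite directions, and the difference between the species was not tested, since no library was replicated. The differences of differences (log2, D. melanogaster minus D. virilis) were 7.99 for DNaseII, 7.02 for CAH7, 6.02 for Miox, 4.45 for Tm2, 4.44 for ara, 3.97 for CG10433, 3.72 for FBgn0029128, 3.5 for Mlc2, 2.84 for FBgn0004028 and 2.54 for Sf3b3. They were -8.30 for CG5402, -5.13 for Ugalt, -4.10 for Sgs5bis and -3.38 for Inos. ara and Sf3b3 also had D. melanogaster positions that favoured opposite discs.

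Tags outside the pairing made up a sizeable part of the D. virilis libraries. There 13.6% of the eye-antennal and 12.8% of the wing tags carried no D. melanogaster gene. Tags with no gene at all, which are part of these, made up 3.09% and 1.24% in D. virilis. The same measure was 2.04% and 0.886% in D. melanogaster. Of 12681 D. melanogaster genes with a tag, 9515 were paired with a tag in both species. The share of D. melanogaster tags on the unpaired genes was not computed. None of the tags outside the pairing entered the comparison of paired genes.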

How the results depend on the processing

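No paired analysis was possible because the difference between 2 species in the disc ratio rests on 1 pair of discs per species, and for the same reason no replicate could be left out. With a fold threshold of 1.5 the classes held 188 (D. melanogaster alone, eye-antennal), 329 (D. melanogaster alone, wing), 51 (D. virilis alone, eye-antennal), 147 (D. virilis alone, wing) and 39 (opposite) genes, and with a threshold of 4 they held 34, 30, 9, 22 and 2. A minimum of 100 tags left 48 genes biased to the eye-antennal disc in D. melanogaster alone, 13 to the eye-antennal disc and 41 to the wing disc in D. virilis alone, and a minimum of 10 tags gave 60 eye-antennal genes in D. virilis alone. The leading position alone gave 138 eye-antennal genes in D. melanogaster alone. The share of changed genes among the biased ones was 40.2% with a minimum of 10 tags, 52.3% with 100 tags, 40.9% with a threshold of 4 and 55.1% with the leading position alone. The direction of Tbca turned round with the leading position (0.34) and the genome mapping (0.53), and the cause was not tested beyond its divided positions. Of the values of the 83 named genes under the alternatives 819 stayed close, 29 moved further with the same sign and those 2 turned round; of the list medians 299 stayed close and 1 moved. Under total-tag scaling 325 of the 370 members were called again (87.8% of them, 89.8% of the 362 called there), and under DESeq2 size factors 349 (94.3%, and 96.1% of 363). Under the genome mapping 246 were called again (66.5%, and 72.6% of 339), where 287 of the 370 could be paired. The leading position alone called 314 again (84.9%, and 64.9% of 484), where 341 of the 370 could be paired. With the lists of muscle, fat body, salivary gland, midgut, hemocytes, brain and ring gland left out, an alternative chosen after seeing the data, the classes held 87, 164, 32, 62 and 11 genes and the share was 47.0%. Counts of 1 to 3 tags in the lower disc, as in DNaseII, Oat or Peritrophin-15a, fix only a wide range for the fold.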

Other observations

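Several genes of circulating factors and metabolism, chosen after their values were seen, had the same calls as Lsp2 and Fbp2. They were called biased to the wing disc in D. virilis and D. yakuba and not in D. melanogaster. Hn and Gbp2 leaned to the wing disc in D. melanogaster as well, below the bound, and so differed in degree. CCHa2, a peptide hormone of fat body and gut, had 88 eye-antennal and 73 wing tags in D. melanogaster, 5 and 51 in D. virilis and 31 and 134 in D. yakuba. Gbp2, a growth-blocking peptide, had 146 and 213 in D. melanogaster, 4 and 73 in D. virilis and 60 and 179 in D. yakuba. Hn, phenylalanine hydroxylase, had 88 and 141 in D. melanogaster, 1 and 50 in D. virilis and 5 and 44 in D. yakuba. Pepck2, a phosphoenolpyruvate carboxykinase, had 46 and 24 in D. melanogaster, 14 and 80 in D. virilis and 58 and 105 in D. yakuba. NimB2, a secreted Nimrod family protein, had 112 and 67 in D. melanogaster, 74 and 352 in D. virilis and 25 and 43 in D. yakuba. Their D. yakuba folds towards the wing disc were 11.6 for CCHa2, 7.99 for Gbp2, 23.6 for Hn, 4.85 for Pepck2 and 4.61 for NimB2.

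The 1 gene biased to the wing disc in D. melanogaster alone that was also biased to it in D. yakuba was Vajk3, with 32 and 136 tags in D. melanogaster, 64 and 113 in D. virilis and 13 and 81 in D. yakuba. Cad88C, a cadherin biased to the eye-antennal disc in D. melanogaster alone, had 58 and 1 tags in D. melanogaster, 134 and 97 in D. virilis and 345 and 28 in D. yakuba. These genes too were picked out by their values.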
